A study of Mus musculus with 9 samples.

Results

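The anoctamins (TMEM16 family) examined here were Ano1, Ano4, Ano5, Ano6, Ano8 and Ano10, 6 genes chosen by symbol. Of these, 5 had a row among the 21049 genes of the normalized count table, and Ano4 was not analysed here. Ano1, Ano6, Ano8 and Ano10 passed a minimum value of 10 in at least 3 libraries and were tested. Ano5 lay under that minimum.

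Anoctamins are membrane proteins, many of them controlled by calcium, and the family holds both chloride channels and phospholipid scramblases. Ano1 encodes a chloride channel that opens when cytosolic calcium rises. In smooth muscle, chloride is held above its equilibrium inside the cell, so that opening of the channel lets chloride out, depolarizes the membrane and favours calcium entry through voltage-gated channels and contraction. Ano6 encodes a scramblase that moves phosphatidylserine to the outer leaflet of the plasma membrane and also conducts ions. Ano10 encodes a scramblase of the endoplasmic reticulum, and Ano8 a protein that tethers the endoplasmic reticulum to the plasma membrane. Ano5 is best known from skeletal muscle, where human mutations impair membrane repair and cause muscular dystrophy.

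The 9 libraries came from smooth muscle cells of mouse lung sorted by fluorescence, in 3 groups of 3. The group called total_SMC was taken from mice of genotype tg-Acta2-GFP and held pulmonary smooth muscle of all kinds, venous cells among them. PASMC, the pulmonary arterial cells, came from Cspg4/Acta2-CreER/R26-GFP mice (ASMC-effector). BSMC, the bronchial cells, came from Chrm2/Acta2-CreER/R26-GFP mice (NVSMC-effector). Every library was labelled as tamoxifen-treated over 3 days, with 0.75 mg given for each 10 g of mouse, the total_SMC libraries too, whose genotype label names no CreER. Each population is limited to the cells in which these transgenes act, with Acta2 named in every genotype, Cspg4 in that of PASMC and Chrm2 in that of BSMC. Population, mouse line and sort cannot be told apart in this design. Nothing in the labels ties each replicate to an animal of its own, so the p-values reflect variation among libraries that may be technical.

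Depth, read as the reads implied by the values, was 9.54 ± 0.53 M in total_SMC, 9.43 ± 0.55 M in PASMC and 7.62 ± 1.53 M in BSMC libraries (SD, n = 3 each). Myh11, the smooth muscle myosin heavy chain, stood at 10055 to 12375 in total_SMC, 11203 to 12498 in PASMC and 9171 to 11404 in BSMC. Acta2, the smooth muscle actin, averaged 3017 ± 109, 3290 ± 201 and 3948 ± 628 in the same order (SD, n = 3 each). The sum of 7 smooth muscle markers, in counts scaled to the library total (CPM), was 2647 to 3031 in total_SMC, 3213 to 3558 in PASMC and 3525 to 4227 in BSMC, lowest in total_SMC. Cspg4, named in the genotype of the PASMC mice, averaged 555 ± 211 in total_SMC, 2003 ± 370 in PASMC and 1514 ± 244 in BSMC. Chrm2, named in the genotype of the BSMC mice, averaged 327 ± 111 in libraries labelled PASMC and 164 ± 54.6 in libraries labelled BSMC. Hhip averaged 7597 ± 193 against 3161 ± 298 and Lgr6 4528 ± 374 against 2387 ± 267 in the same groups (SD, n = 3 each). The libraries of these groups did not overlap for Hhip (7414 to 7798 against 2913 to 3491) or Lgr6 (4116 to 4848 against 2088 to 2601). Those of Chrm2 did (199 to 398 against 115 to 223). Hhip, Lgr6 and Chrm2 were chosen, with earlier results known, to check the PASMC and BSMC labels, and each had the higher mean in PASMC. The mean of Chrm2 ran against the labels, and whether the labels are right was not tested. The group names below are those of the labels. Markers of other cells were present in each group. Some are given beside genes below, most of them with a group order like that of the gene. Of the others, 6 alveolar epithelial markers summed to 282 to 359 CPM in total_SMC, 596 to 627 in PASMC and 492 to 709 in BSMC. The sum of 7 endothelial markers was 915 to 1217, 641 to 830 and 800 to 897 in the same order. Their part in the values below was not tested. BSMC replicate 2 stood above the other BSMC libraries in Ano1 and Ano6, whereas in Ano10 replicate 1 stood apart, below the others. Replicate 2 was the deepest BSMC library (9.33 M implied reads against 7.14 and 6.39 M). Its leukocyte sum was the lowest of the BSMC libraries (667 CPM against 989 and 982) and its airway epithelial sum the highest (199 against 158 and 163). The part of these differences was not tested. Calls that replicate 2 changed for an anoctamin are given with and without it.

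All values are the authors' normalized read counts unless another unit is named. Levels of different genes are compared per kilobase of annotated exon (per kb). The length is the union of all annotated exons of a gene, not that of the transcripts present, so the order of genes depends on it. In total_SMC the order per kb was Ano6 at 358, Ano1 at 245, Ano10 at 202 and Ano8 at 38.3. In PASMC it was Ano1 at 363, Ano6 at 271, Ano10 at 230 and Ano8 at 50.2. In BSMC it was Ano1 at 246, Ano10 at 216, Ano6 at 143 and Ano8 at 25.5. Among neighbours in that order, the libraries of Ano1 and Ano10 overlapped in total_SMC (202 to 270 against 198 to 209 per kb), as did those of Ano1 and Ano6 in PASMC (285 to 436 against 244 to 295). In BSMC the libraries of Ano1 and Ano10 overlapped (155 to 368 against 173 to 239), as did those of Ano10 and Ano6 (173 to 239 against 94.5 to 214). Mean levels per kb were also set among all tested genes with a known exon length. Ano1 lay above 81.7% of genes in total_SMC, 89.4% in PASMC and 82.0% in BSMC. Ano6 lay above 88.6%, 84.3% and 71.4% in the same order, and Ano10 above 77.7%, 81.1% and 79.7%. Ano8 lay lower, above 39.9% of genes in total_SMC, 46.4% in PASMC and 34.7% in BSMC.

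**Figure D1:**
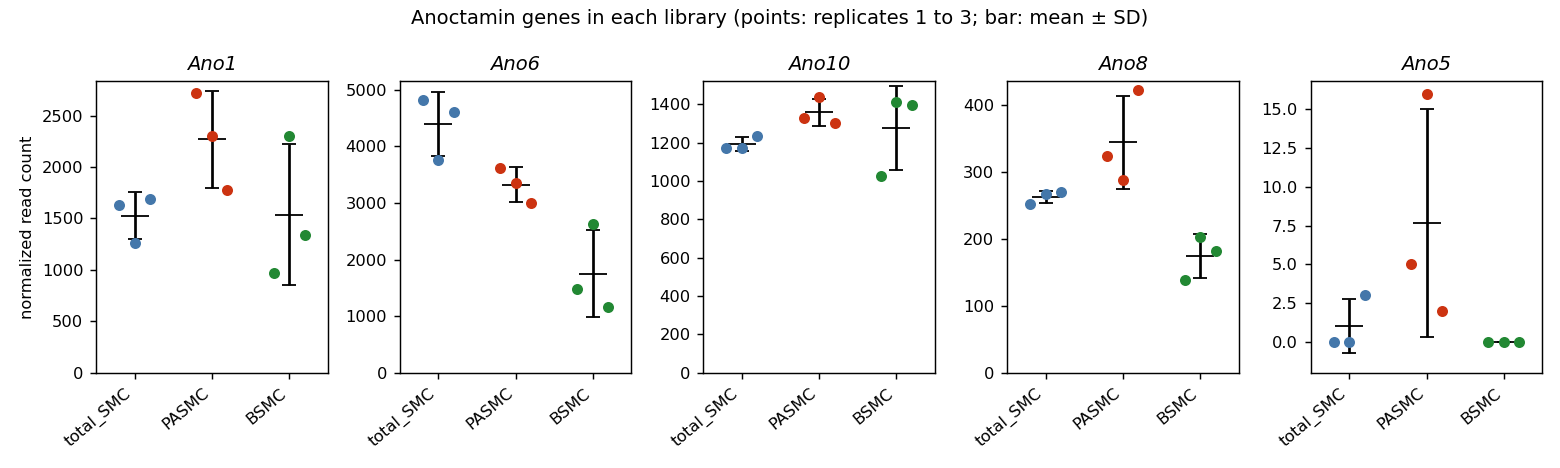
Normalized read counts (vertical axis, starting near 0 and scaled for each gene) of the 5 anoctamins in each library, with total_SMC, PASMC and BSMC from left to right and bars for mean ± SD of 3 libraries. Ano6 separates all 3 groups, from 3756 to 4823 in total_SMC down to 1159 to 2631 in BSMC, whereas the BSMC libraries of Ano1 spread from 969 to 2299.

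Ano1 (ENSMUSG00000031075, minus strand of chromosome 7, 144142286 to 144305711, mm39, with 6244 exonic bases) had values of 1636, 1263 and 1686 in total_SMC, 2723, 2306 and 1780 in PASMC, and 969, 2299 and 1344 in BSMC libraries. All 3 PASMC libraries lay above all 3 total_SMC libraries, while the BSMC libraries ran across both, with replicate 2 at the level of PASMC. The means were 1528 ± 231, 2270 ± 473 and 1537 ± 686 (SD, n = 3 each). No comparison of Ano1 passed an adjusted p of 0.05 in the limma fit with Benjamini-Hochberg adjustment over 15647 genes. For PASMC over BSMC the log2 fold change was 0.63 (SE 0.27, 95% interval 0.05 to 1.22, adjusted p = 0.104). For total_SMC over PASMC it was -0.56 (interval -1.15 to 0.03, adjusted p = 0.202), and for total_SMC over BSMC 0.07 (interval -0.51 to 0.66, adjusted p = 0.843).

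Whether Ano1 was called depended on the setting. Without BSMC replicate 2, the limma log2 fold change of PASMC over BSMC was 0.97 with an adjusted p of 0.0038, and total_SMC over PASMC, whose own values do not change, passed at -0.56 with an adjusted p of 0.0477. Array weights also gave both calls (adjusted p = 0.0203 and 0.0192), and 2 groups only gave that of total_SMC over PASMC (0.0173). Over the 20 alternatives, the adjusted p of PASMC over BSMC ranged from 0.0038 to 0.344, and that of total_SMC over PASMC from 0.0173 to 0.475. In bulk samples, fewer cells that express a gene and less RNA per cell cannot be told apart. The summed CPM of 6 airway epithelial markers were 200 to 303 in total_SMC, 337 to 446 in PASMC and 158 to 199 in BSMC, so the PASMC libraries were high in both. Not every marker had that order: Epcam, among these 6, averaged 114 ± 59.5 in total_SMC, 74.0 ± 28.8 in PASMC and 66.7 ± 34.5 in BSMC. The sum of 6 pericyte markers was 1115 to 1191 in total_SMC, 1477 to 1536 in PASMC and 1068 to 1342 in BSMC, again highest in PASMC. That sum includes Cspg4, the gene named in the genotype of the PASMC mice, with means of 555, 2003 and 1514 in the same order. All 12 of these markers were in the table and none was at 0 in a whole group. Their part in the Ano1 values, and in those of Ano8 below, was not tested.

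Ano6 (ENSMUSG00000064210, plus strand of chromosome 15, 95688724 to 95872632, mm39, with 12269 exonic bases) had the largest ratio of highest to lowest value among the tested members. Its values were 4823, 3756 and 4600 in total_SMC, 3617, 3361 and 2997 in PASMC, and 1471, 2631 and 1159 in BSMC libraries. No group overlapped another, and the BSMC libraries were the lowest. The means were 4393 ± 563, 3325 ± 312 and 1754 ± 776 (SD, n = 3 each). Ano6 was higher in PASMC than in BSMC by a log2 fold change of 1.01 (SE 0.24, interval 0.49 to 1.53, limma adjusted p = 0.0122). It was higher in total_SMC than in BSMC by 1.40 (interval 0.88 to 1.93, adjusted p = 0.000835), and that call held in all 20 alternatives, with adjusted p up to 0.0077. For total_SMC over PASMC the log2 fold change was 0.40 (interval -0.12 to 0.92) and did not pass, at an adjusted p of 0.327. It passed without BSMC replicate 2, at an adjusted p of 0.0476, and the range over the alternatives was 0.017 to 0.583.

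The PASMC over BSMC call of Ano6 was lost in the limma fit without BSMC replicate 1 (0.92, adjusted p = 0.0538) and without PASMC replicate 1 (0.94, adjusted p = 0.0535). Without BSMC replicate 2 it was 1.34, with an adjusted p of 8.87e-05. The summed CPM of 6 fibroblast markers had the same group order as Ano6, 3172 to 3536 in total_SMC, 2103 to 2315 in PASMC and 1676 to 2043 in BSMC. All 6 were in the table and none was at 0. Within BSMC the order was another one: replicate 2, with the highest Ano6 value, had the lowest fibroblast sum, 1676. Leukocyte markers, 6 of 6 in the table, summed to 204 to 250 CPM in total_SMC, 73.6 to 96.8 in PASMC, where Ptprc was at 0, and 667 to 989 in BSMC. The part of either cell type in the Ano6 values was not tested. Opposite-strand non-coding genes share its interval, Gm49172 (107 to 154 in the 9 libraries), A130051J06Rik (5 to 20) and Gm17546 (0 to 5). The strandedness of the counting is not given in the sources used here, and their part in the Ano6 count was not tested.

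The balance between the channel gene and the scramblase gene can be read as a ratio within each library. The ratio of Ano6 to Ano1 per kb was 1.5, 1.51 and 1.39 in total_SMC, 0.68, 0.74 and 0.86 in PASMC, and 0.77, 0.58 and 0.44 in BSMC libraries. Every total_SMC library had more Ano6 than Ano1 per kb, and every PASMC and BSMC library had less. The side of 1 depends on the lengths used, 12269 exonic bases for Ano6 and 6244 for Ano1. Before division by length, Ano6 was above Ano1 in every library except BSMC replicate 3 (1159 against 1344). This ratio was chosen after the values were seen, so the tests that follow describe the separation and add no support for it. By an exact two-sided permutation test of its log2 value, the difference of 0.96 between total_SMC and PASMC and the difference of 1.33 between total_SMC and BSMC each had p = 0.1, the smallest that 3 libraries against 3 allow, and 0.15 after Benjamini-Hochberg adjustment over the 3 comparisons. PASMC over BSMC differed by 0.37 (exact p = 0.3, adjusted 0.3). As a share of the summed level of the measured members per kb, Ano6 made up 42.4% ± 1.6 in total_SMC, 29.6% ± 0.40 in PASMC and 22.4% ± 5.1 in BSMC. Ano1 made up 28.9% ± 1.6, 39.4% ± 4.2 and 38.0% ± 5.1 in the same groups (SD, n = 3 each). The sum itself was 843 ± 84.6 per kb in total_SMC, 915 ± 97.0 in PASMC and 631 ± 198 in BSMC.

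**Figure D2:**
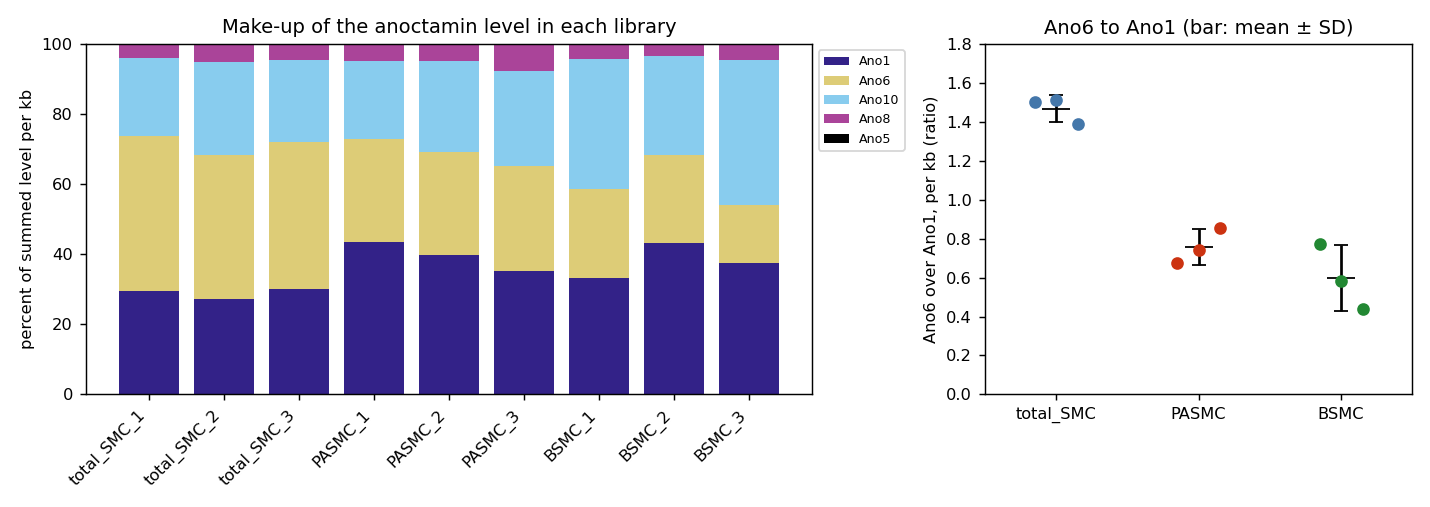
Left, the percent of the summed anoctamin level per kb that each measured member makes up in each library. Right, the ratio of Ano6 to Ano1 per kb, with 1 point a library and mean ± SD, at 1.39 to 1.51 in total_SMC, 0.68 to 0.86 in PASMC and 0.44 to 0.77 in BSMC.

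Ano8 (ENSMUSG00000034863, minus strand of chromosome 8, 71928663 to 71938607, mm39, with 6847 exonic bases) had values of 252, 266 and 269 in total_SMC, 323, 287 and 421 in PASMC, and 139, 203 and 182 in BSMC libraries. The 3 groups did not overlap, with PASMC the highest and BSMC the lowest. The means were 262 ± 9.07, 344 ± 69.3 and 175 ± 32.6 (SD, n = 3 each). Ano8 was higher in PASMC than in BSMC by a log2 fold change of 0.97 (SE 0.21, interval 0.52 to 1.42, limma adjusted p = 0.00648), a call that held in all 20 alternatives with adjusted p from 0.0025 to 0.040. It was higher in total_SMC than in BSMC by 0.60 (interval 0.15 to 1.05, adjusted p = 0.0353), a call lost in 9 of the alternatives, where adjusted p reached 0.411. For total_SMC over PASMC it was -0.37 (interval -0.82 to 0.08, adjusted p = 0.282). The gene interval of Ano8 shares 80 bases with that of Dda1 on the opposite strand. Dda1 averaged 1185 ± 169 in total_SMC, 1357 ± 83.5 in PASMC and 1728 ± 275 in BSMC, highest where Ano8 was lowest.

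Ano10 (ENSMUSG00000037949, minus strand of chromosome 9, 122004940 to 122123489, mm39, with 5910 exonic bases) had the smallest ratio of highest to lowest value among the tested members. Its values were 1169, 1170 and 1236 in total_SMC, 1330, 1438 and 1303 in PASMC, and 1024, 1412 and 1396 in BSMC libraries. The PASMC libraries lay above the total_SMC libraries, and the BSMC libraries spanned both. The means were 1192 ± 38.4, 1357 ± 71.4 and 1277 ± 220 (SD, n = 3 each). The limma log2 fold change was 0.10 for PASMC over BSMC (interval -0.20 to 0.41, adjusted p = 0.611), -0.19 for total_SMC over PASMC (interval -0.49 to 0.12, adjusted p = 0.452) and -0.09 for total_SMC over BSMC (interval -0.39 to 0.22, adjusted p = 0.639). None passed.

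Ano5 (ENSMUSG00000055489, plus strand of chromosome 7, 51160777 to 51248457, mm39) was near the limit of detection, with values of 0, 0 and 3 in total_SMC, 5, 16 and 2 in PASMC, and 0, 0 and 0 in BSMC libraries. Each PASMC library held some Ano5 reads and no BSMC library did. Set against a floor of 3 reads per BSMC library, a value of 3.29, the PASMC mean of 7.67 was 2.33-fold higher. That floor covers counting error in BSMC only, not the spread of the PASMC libraries (SD 7.37). PASMC replicate 3, at 2, lay under it. The ratio rests on PASMC replicate 2, without which the PASMC mean of 3.5 was 1.06-fold higher than the floor. Without the minimum value Ano5 would enter the fit almost only through PASMC, the group where it was high, so its values are given with no test. At this depth its level in BSMC was not detectable.

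Of the 4 members tested, 2 were called higher and none lower in PASMC than in BSMC, where 22.1% of all tested genes were called, 13.2% higher and 8.88% lower. In total_SMC over PASMC, where 16.2% were called, 9.39% higher and 6.83% lower, 0 of the 4 were called by limma. There 0 of the 4 had an unadjusted p under 0.05 either, Ano1 having the smallest at 0.0596. In total_SMC over BSMC 2 of the 4 were called higher and none lower, against 23.7% higher and 18.2% lower, together 41.9%, of all genes. The 2 called members, Ano8 and Ano6, are long genes. Of genes in their classes of exonic length, 36.7% and 41.7% were called higher in total_SMC over BSMC, and 23.5% and 25.7% in PASMC over BSMC. The median log2 fold change of the 4 was 0.80, -0.28 and 0.34 in these comparisons, taken in that order, beside 0.05, 0.03 and 0.05 over all tested genes. The comparisons share libraries, so their results are not independent of each other. Libraries of the compared groups did not overlap for 2 members in PASMC over BSMC, both higher, as for 35.2% of all tested genes (17.6% higher and 17.6% lower). In total_SMC over PASMC they did not overlap for all 4, with Ano6 higher and the other members lower, as for 40.5% of genes (22.6% higher and 18.0% lower). In total_SMC over BSMC they did not overlap for 2, both higher, as for 50.5% (26.6% higher and 23.9% lower).

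**Figure D3:**
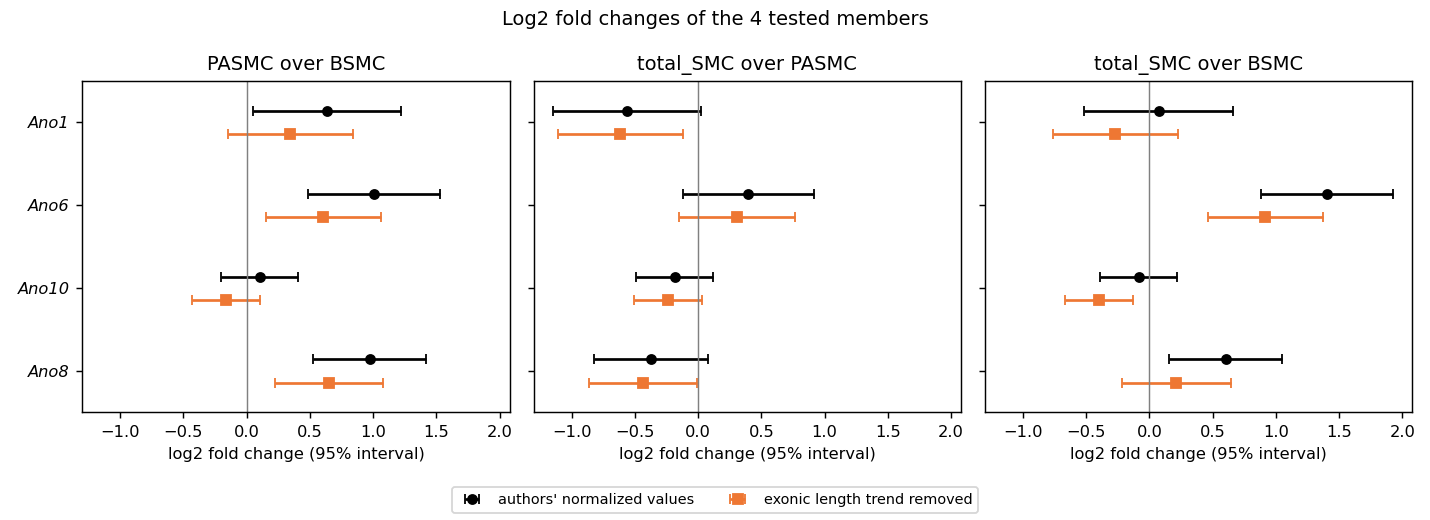
Log2 fold changes (horizontal axis) of the 4 tested anoctamins with 95% intervals in each comparison, from the authors' normalized values (black circles) and after removal of the trend with exonic length (orange squares). Ano6 lies at 1.01 for PASMC over BSMC and 1.40 for total_SMC over BSMC before removal, and at 0.61 and 0.92 after it.

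The fold changes against BSMC moved with the length of the gene. For genes with under 2000 exonic bases the median log2 fold change of PASMC over BSMC was -0.41, and 2.69% of them were called higher. For genes of 6000 to 8000 bases, the class of Ano1 and Ano8, it was 0.35 with 23.5% called higher. From 12000 bases, the class of Ano6, it was 0.39 with 25.7% called higher. In total_SMC over BSMC the same classes had medians of -0.47, 0.42 and 0.51, with 7.98%, 36.7% and 41.7% called higher. In total_SMC over PASMC the medians were -0.03, 0.06 and 0.09. Over the 797 tested genes of at least 12000 exonic bases, the mean log2 value exceeded that of all genes by 0.80 to 0.97 in total_SMC, 0.82 to 0.95 in PASMC and 0.39 to 0.48 in BSMC libraries.

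When that trend was removed, an alternative added after the data were seen, the limma fit called Ano8 higher in PASMC than in BSMC (0.65, adjusted p = 0.040), and the Ano6 call was lost (0.61, adjusted p = 0.064). In total_SMC over BSMC the Ano6 call held (0.92, adjusted p = 0.0055) and the Ano8 call was lost (0.21, adjusted p = 0.411). Ano10 was then called lower in total_SMC than in BSMC (-0.40, adjusted p = 0.0236), where it had not passed before. Ano1 passed in no comparison after removal of the trend. Its value for PASMC over BSMC was then 0.35 (adjusted p = 0.306) and for total_SMC over PASMC -0.62 (adjusted p = 0.0863).

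**Figure D4:**
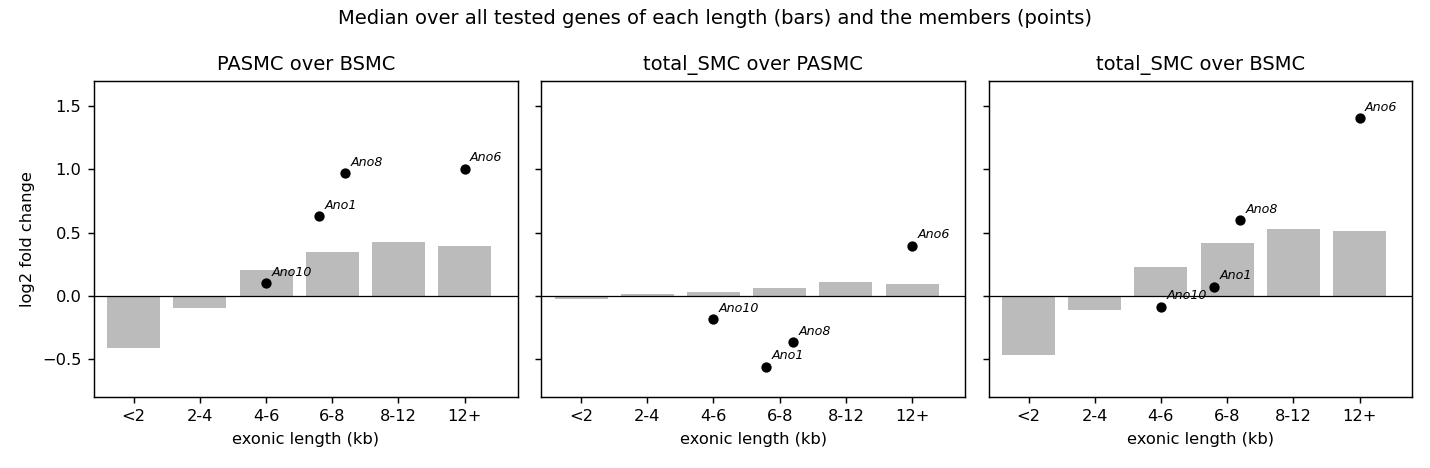
Median log2 fold change (vertical axis) of all tested genes by class of exonic length in kb (bars), with the 4 tested anoctamins as points. The bars against BSMC go from -0.41 and -0.47 in the shortest class to 0.39 and 0.51 in the longest, while those of total_SMC over PASMC stay between -0.03 and 0.11.

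RefSeq promoter windows, the 250 bases before each start in build GRCm38.p6, were given for Ano1, Ano4, Ano5, Ano6 and Ano10. The windows of the 3 most abundant members per kb are shown because each holds more than 1 GC box, the letters GGGCGG on either strand, in capitals. Ano1 lies at chr7:144738574-144738823 (minus strand), Ano6 at chr15:95790593-95790842 (plus strand) and Ano10 at chr9:122294424-122294673 (minus strand), each read from 5′ to 3′ along its gene.
Ano1: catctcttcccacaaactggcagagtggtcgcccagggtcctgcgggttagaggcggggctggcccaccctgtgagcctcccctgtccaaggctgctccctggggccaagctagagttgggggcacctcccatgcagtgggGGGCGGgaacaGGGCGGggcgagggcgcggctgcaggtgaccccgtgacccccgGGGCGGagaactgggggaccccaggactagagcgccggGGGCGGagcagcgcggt
Ano6: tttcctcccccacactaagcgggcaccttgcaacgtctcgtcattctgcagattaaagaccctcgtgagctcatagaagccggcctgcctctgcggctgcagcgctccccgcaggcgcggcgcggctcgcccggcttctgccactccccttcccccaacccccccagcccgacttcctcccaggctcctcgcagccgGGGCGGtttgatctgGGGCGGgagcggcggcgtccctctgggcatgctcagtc
Ano10: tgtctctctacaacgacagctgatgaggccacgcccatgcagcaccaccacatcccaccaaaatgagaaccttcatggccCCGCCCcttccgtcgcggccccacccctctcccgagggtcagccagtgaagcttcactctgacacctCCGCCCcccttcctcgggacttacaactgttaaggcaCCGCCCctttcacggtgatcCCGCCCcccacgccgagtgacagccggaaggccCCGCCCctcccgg
The GC box occurred 4 times for Ano1, 2 times for Ano6 and 5 times for Ano10, and the windows were chosen for these matches, so the share of 32.7% among 32851 promoter windows of the same length is given as background alone. The windows had a GC content of 72.0%, 68.4% and 65.2% in the same order, beside a median of 52.4% over all windows. The CArG box, the motif of serum response factor found at many contractile genes, was searched by its name and occurred in 1.47% of windows but in none of these 3. TATAAA (12.4% of windows) and CCAAT (33.8%) were also absent from them. The E-box letters CAGCTG or CACGTG (18.2%) were found once in the Ano10 window. All motifs were searched on both strands, and no match overlapped another. These are matches of letters, not binding sites, and the windows of Ano4 (53.2% GC) and Ano5 (61.6% GC) held no GC box, with 2 and 1 matches of CCAAT.

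Among the 9 libraries the log2 values of Ano1 went most closely with those of Ano10 (Pearson r 0.75), and those of Ano6 with Ano8 (0.67), while Ano6 and Ano10 had an r of 0.01. Over 10281 protein-coding genes, patterns among the most like Ano1 were those of Crat (r 0.96), Reep1 (0.96), Pitpnm1 (0.95) and Tnfrsf19 (0.95). Those most like Ano6 were Cand1 (0.996), Dock1 (0.995) and Acp2 (0.995). For Ano8 they were Tmem63b (0.98), Wdr81 (0.96) and Ulk1 (0.96), and for Ano10 Slc25a12 (0.96), Asap2 (0.96) and Zfp653 (0.95). These describe 9 libraries that share groups, depth and scaling.

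Of the other anoctamins, Ano2, a calcium-activated chloride channel known from olfactory neurons, had values of 62, 76 and 69 in total_SMC, 33, 24 and 24 in PASMC, and 60, 81 and 18 in BSMC libraries. The total_SMC libraries lay above the PASMC libraries, but the log2 fold change of 1.33 had a limma adjusted p of 0.0872. It passed in 4 of the 20 alternatives: without BSMC replicate 2 (0.0451), without BSMC replicate 3 (0.00697), with 2 groups only (0.0037) and with array weights (0.0035). Over all of them the adjusted p reached 0.22. Ano9 had values of 17, 39 and 16 in total_SMC, 0, 0 and 0 in PASMC, and 0, 0 and 8 in BSMC libraries. Only its 3 total_SMC libraries reached the minimum of 10, so it entered the fit through the group where it was high, and its values are given as a description with no test. Against a floor of 3 reads per PASMC library the total_SMC mean of 24 was at least 8.65-fold higher, and at least 5.95-fold without total_SMC replicate 2. Mesothelial markers, 5 of 5 in the table and none at 0 in a whole group, had the same group order as Ano9, with sums of 530 to 657 CPM in total_SMC, 7.18 to 15.9 in PASMC and 38.0 to 112 in BSMC. Their part in the Ano9 values was not tested. Ano3 stood at 2 to 10 in total_SMC, 0 to 2 in PASMC and 0 to 2 in BSMC.

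Chloride channels depolarize a cell only where chloride has been loaded into it. In the gene lists that follow, as for the members, the fibroblast sum was highest in total_SMC and the leukocyte sum in BSMC, and their part in the counts was not tested. Of all tested genes, 13.2% were higher and 8.88% lower in PASMC over BSMC, 9.39% and 6.83% in total_SMC over PASMC, and 23.7% and 18.2% in total_SMC over BSMC. Those shares were 9.01% and 9.44%, 10.2% and 7.69%, and 19.4% and 18.7% with the length trend removed, and 24.2% and 17.5%, 12.2% and 8.79%, and 30.3% and 22.5% without BSMC replicate 2. Of 9 tested genes of chloride loading and extrusion, 3 were higher and none lower in PASMC than in BSMC, 0 higher and 1 lower in total_SMC than in PASMC, and 4 higher and none lower in total_SMC than in BSMC. The shares higher were 33.3%, 0% and 44.4% of the list, beside 13.2%, 9.39% and 23.7% of all tested genes. Slc12a2, which encodes the sodium, potassium and chloride cotransporter that loads chloride, averaged 331 ± 33.5 in total_SMC, 284 ± 69.9 in PASMC and 135 ± 27.4 in BSMC (SD, n = 3 each). Its limma log2 fold change was 1.06 for PASMC over BSMC (SE 0.23, adjusted p = 0.00685) and 1.30 for total_SMC over BSMC (SE 0.23, adjusted p = 0.00097). Slc4a2, an anion exchanger, was higher in PASMC than in BSMC by 0.91 (SE 0.14, adjusted p = 0.000774). Slc4a3, a related exchanger, averaged 409 ± 73.2 in total_SMC and 956 ± 50.9 in PASMC, a log2 fold change of -1.24 (SE 0.19, adjusted p = 0.00109). With the length trend removed the counts were 2 and 0, 0 and 1, and 2 and 1. Without BSMC replicate 2 they were 6 and 0, 0 and 1, and 6 and 0.

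Of 21 tested chloride channel genes outside the family, 3 were higher and 1 lower in PASMC than in BSMC, 2 higher and none lower in total_SMC than in PASMC, and 11 higher and 2 lower in total_SMC than in BSMC. The shares higher were 14.3%, 9.52% and 52.4%, beside 13.2%, 9.39% and 23.7% of all tested genes, so the first and second were near the background. Clcn5, an endosomal chloride and proton exchanger, averaged 166 ± 12.5 in total_SMC, 96.0 ± 4.6 in PASMC and 12.3 ± 16.3 in BSMC. Its log2 fold change of 3.74 for PASMC over BSMC (SE 0.74, limma adjusted p = 0.00434) was 4.81 without BSMC replicate 1 and 2.81 without BSMC replicate 3. That of 4.52 for total_SMC over BSMC was 5.59 and 3.59 without the same libraries. Lrrc8a, the obligatory subunit of the volume-regulated anion channel, was lower in total_SMC than in BSMC by a log2 fold change of -1.07 (SE 0.26, adjusted p = 0.0068). Lrrc8b, another subunit, was higher in total_SMC than in PASMC by 1.44 (SE 0.23, adjusted p = 0.00107). Clic5 averaged 489 ± 228 in total_SMC, 130 ± 18 in PASMC and 163 ± 35.0 in BSMC, and was called higher in total_SMC than in each of the others (1.8 and 1.49). With the length trend removed, the list counts were 1 and 2, 2 and 0, and 5 and 3. Without BSMC replicate 2 they were 7 and 2, 3 and 0, and 13 and 3.

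Calcium entry and release open Ano1, and the list for them also holds the calcium pumps Atp2a2, Atp2b1 and Atp2b4, which are neither. Of its 22 tested genes, 2 were higher and 2 lower in PASMC than in BSMC. In total_SMC over PASMC 3 were higher and 5 lower, and in total_SMC over BSMC 4 were higher and 7 lower. Pumps were among these calls: Atp2b1 was higher and Atp2b4 lower in both comparisons, and Atp2a2 was lower in total_SMC over PASMC. The shares lower were 9.09%, 22.7% and 31.8%, beside 8.88%, 6.83% and 18.2% of all tested genes, and the shares higher were 9.09%, 13.6% and 18.2%, beside 13.2%, 9.39% and 23.7%. Cacna1c, the pore of the L-type calcium channel, averaged 221 ± 13.9 in total_SMC, 568 ± 105 in PASMC and 727 ± 226 in BSMC. The sum of 8 striated and cardiac muscle markers had the same order, with 301 to 335 CPM in total_SMC, 478 to 637 in PASMC and 528 to 1083 in BSMC, as had the smooth muscle sum given above, and their part in the Cacna1c values was not tested. Its log2 fold change was -1.34 in total_SMC over PASMC (SE 0.24, limma adjusted p = 0.00235) and -1.66 in total_SMC over BSMC (SE 0.24, adjusted p = 0.000267). Trpc6, a receptor-operated cation channel, averaged 131 ± 22.1 in total_SMC, 44.3 ± 21 in PASMC and 216 ± 24.7 in BSMC, lower in PASMC than in BSMC by -2.36 (SE 0.33, adjusted p = 0.000471). Orai1, the pore of the store-operated channel, was lower in PASMC than in BSMC by -0.77 (SE 0.16, adjusted p = 0.00525). Itpr3, an inositol trisphosphate receptor, was higher in total_SMC than in PASMC by 1.59 (SE 0.36, adjusted p = 0.0104). With the length trend removed the counts were 0 and 2, 3 and 6, and 3 and 10, and without BSMC replicate 2 they were 4 and 5, 4 and 7, and 4 and 6.

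Among 20 tested scramblases and flippases outside the family, which share with Ano6 and Ano10 the movement of lipids between leaflets, 7 were higher and 1 lower in PASMC than in BSMC. In total_SMC over PASMC 3 were higher and none lower, and in total_SMC over BSMC 10 were higher and none lower. The shares higher were 35.0%, 15% and 50%, beside 13.2%, 9.39% and 23.7% of all tested genes. Atp11a, a flippase that returns phosphatidylserine to the inner leaflet, had the group order of Ano6, with means of 1517 ± 81.7 in total_SMC, 808 ± 72.2 in PASMC and 338 ± 15 in BSMC. Its log2 fold change was 1.25 for PASMC over BSMC (SE 0.13, limma adjusted p = 5.17e-05), 0.91 for total_SMC over PASMC (SE 0.13, adjusted p = 0.000561) and 2.16 for total_SMC over BSMC (SE 0.13, adjusted p = 5.28e-07). Plscr1 (1.14, adjusted p = 0.00126) and Plscr2 (1.95, adjusted p = 0.000284), of the phospholipid scramblase family, were higher in total_SMC than in PASMC. The median log2 fold change of the list was 0.41, 0.34 and 0.80 in the 3 comparisons. Without BSMC replicate 2 the counts were 10 and 2, 6 and 0, and 11 and 0, and with the length trend removed they were 5 and 0, 3 and 0, and 9 and 0.

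Of 15 tested membrane repair genes, the setting in which Ano5 is known, 2 were higher and 1 lower in PASMC than in BSMC, 2 higher and 2 lower in total_SMC than in PASMC, and 3 higher and 2 lower in total_SMC than in BSMC. The shares higher were 13.3%, 13.3% and 20.0% and the shares lower 6.67%, 13.3% and 13.3%, beside 13.2%, 9.39% and 23.7% higher and 8.88%, 6.83% and 18.2% lower among all tested genes. Myof, a ferlin of membrane fusion and repair, averaged 2545 ± 283 in total_SMC, 1750 ± 306 in PASMC and 953 ± 223 in BSMC, higher in PASMC than in BSMC by a log2 fold change of 0.89 (SE 0.19, limma adjusted p = 0.00685). Dysf, the related ferlin dysferlin, was lower in total_SMC than in PASMC by -0.96 (SE 0.22, adjusted p = 0.00972). Anxa11, an annexin that binds membranes in the presence of calcium, averaged 943 ± 112 in total_SMC, 1564 ± 220 in PASMC and 2196 ± 184 in BSMC, and was lower in total_SMC than in each of the others (-0.73 and -1.22). Without BSMC replicate 2 the list counts were 3 and 6, 4 and 2, and 4 and 1, and with the length trend removed 1 and 1, 1 and 3, and 3 and 3.

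Of 17 tested genes that tether the endoplasmic reticulum to the plasma membrane, the role given to Ano8, 3 were higher and none lower in PASMC than in BSMC, none higher and 2 lower in total_SMC than in PASMC, and 7 higher and 4 lower in total_SMC than in BSMC. The shares higher were 17.6%, 0% and 41.2% and the shares lower 0%, 11.8% and 23.5%, beside 13.2%, 9.39% and 23.7% higher and 8.88%, 6.83% and 18.2% lower among all tested genes. Jph2, a junctophilin, averaged 908 ± 94.8 in total_SMC, 2500 ± 518 in PASMC and 2085 ± 674 in BSMC, lower in total_SMC than in PASMC by a log2 fold change of -1.44 (SE 0.22, limma adjusted p = 0.000927) and lower than in BSMC by -1.15 (SE 0.22, adjusted p = 0.0018). The striated and cardiac muscle sum and the smooth muscle sum were likewise lowest in total_SMC, and their part in the Jph2 values was not tested. Esyt2, an extended synaptotagmin, was higher in total_SMC than in BSMC by 1.15 (SE 0.28, adjusted p = 0.00692). With the length trend removed the counts were 0 and 0, 0 and 2, and 3 and 5, and without BSMC replicate 2 they were 4 and 1, 1 and 2, and 7 and 4.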

How the data were processed

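Per the labels' protocols, column-purified, DNase-treated RNA (10 ng or less) was made into SMART-Seq v4 libraries. The submitters' processing notes name, with no role or order, the build mm39, DESeq2 1.36.0, featureCounts 2.0.4, Picard 3.1.1, STAR 2.7.11a and Trimmomatic 0.39. The values the authors deposited, given the unit score, were read from their spacing as normalized read counts rounded to whole numbers; each library's factor was recovered in the same way, and dividing values by it gave the implied reads. Spread between libraries is given in place of counting intervals. No pair of libraries within a group was a copy (chi-square per gene 6.01 to 30.2).

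All 9 libraries entered 1 limma fit (limma 3.58.1, R 4.3.3) of 3 group means on log2(value + 1), with eBayes using trend and robust options, over the 15647 genes that reached 10 in 3 or more libraries. P-values were two-sided and adjusted by Benjamini-Hochberg over all of these, with calls at an adjusted p under 0.05. Fold changes on this scale understate the change of low genes. For 96.7% of genes an exonic length, the union of all annotated exons, was found in GENCODE vM21 through the gene identifier. Coordinates are those of the table, and promoter windows are from RefSeq.

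Members, gene lists and tests were chosen with earlier results of these data known. Of each list, the rule named up to 3 called genes per direction and comparison, by size of fold change, with groups that did not overlap. The text gives values for those of them whose calls held in every alternative. The other anoctamins were all named. Of the genes most like Ano1 in pattern, 1 is not reported here. The alternatives were 2 other pseudocounts, 2 other filters, total scaling, quantile normalization, 2 groups only, eBayes without its options, array weights, a replicate block, leaving out each of the 9 libraries, and, added after the data were seen, removal of the trend with exonic length. Other tools were matplotlib 3.10.9, scipy 1.17.1, pandas 2.3.3, numpy 2.4.6 and Python 3.11.15.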

Additional observations from a re-analysis of the deposited data

How the results depend on the processing

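Calls of members kept their direction and their side of the threshold in every alternative for Ano6 in total_SMC over BSMC and for Ano8 in PASMC over BSMC. Array weights brought Ano1 past the threshold in PASMC over BSMC (0.87, limma adjusted p = 0.0203) and in total_SMC over PASMC (-0.54, adjusted p = 0.0192), and Ano6 in total_SMC over PASMC (0.42, adjusted p = 0.0195). A fit of 2 groups only did the same in total_SMC over PASMC for Ano1 (-0.56, adjusted p = 0.0173) and Ano6 (0.40, adjusted p = 0.017). The Ano6 call in PASMC over BSMC was lost without the trend and robust options (1.01, adjusted p = 0.051) and with the exonic length trend removed (0.61, adjusted p = 0.064). The Ano8 call in total_SMC over BSMC was lost under total scaling (0.43, adjusted p = 0.102), quantile normalization (0.43, adjusted p = 0.113), 2 groups only (0.60, adjusted p = 0.0576) and length trend removal (0.21, adjusted p = 0.411). Of values that passed no threshold in either setting, signs turned for Ano10 in PASMC over BSMC (-0.17 with the length trend removed, -0.050 without BSMC replicate 1) and in total_SMC over BSMC (0.022 with array weights). Ano1 in total_SMC over BSMC turned to -0.086 under total scaling, -0.088 under quantile normalization, -0.27 with the length trend removed, -0.21 without BSMC replicate 1 and -0.0039 without total_SMC replicate 3. Ano10 in total_SMC over BSMC was -0.40 with the length trend removed and passed.

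Leaving out each library in turn, Ano1 ranged from 0.35 to 0.97 in PASMC over BSMC, -0.72 to -0.42 in total_SMC over PASMC and -0.21 to 0.41 in total_SMC over BSMC. Ano6 ranged from 0.75 to 1.34 in PASMC over BSMC, with the call lost without BSMC replicate 1 and without PASMC replicate 1, and from 0.32 to 0.51 in total_SMC over PASMC. Ano8 ranged from 0.45 to 0.72 in total_SMC over BSMC, with the call lost without BSMC replicate 1 (adjusted p = 0.111), PASMC replicate 1 (0.0512) or any 1 of the 3 total_SMC libraries (0.0711, 0.0897 and 0.104). Ano10 ranged from -0.050 to 0.18 in PASMC over BSMC.

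The genes called were 3451 in PASMC over BSMC, 2539 in total_SMC over PASMC and 6553 in total_SMC over BSMC. With 2 groups only they were 1941 in PASMC over BSMC and 4231 in total_SMC over PASMC, where array weights gave 5082. Leaving out each library in turn gave 1701 to 6364, 1597 to 3205 and 4254 to 8056 in the order above, the highest each time without BSMC replicate 2. In PASMC over BSMC 59.8% of calls were higher in PASMC, against 46.2% under total scaling, 49.3% under quantile normalization and 48.8% with the length trend removed, and 73.2% and 73.8% without BSMC replicates 1 and 3. In total_SMC over BSMC 56.6% of calls were higher in total_SMC, against 43.0% under total scaling and 44.3% under quantile normalization. The median of all genes there was 0.05, -0.11 and -0.08 under the authors' scaling, total scaling and quantile normalization. The values gave no sign that the replicate numbers pair the samples: correlations of deviations were -0.12 to 0.14 for libraries of the same number and -0.19 to 0.14 for others. The fit with the replicate block called 3287, 2286 and 6350 genes and changed no call of a member. The causes of these shifts were not tested.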
